A study of Mus musculus with 2 samples.

Results

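The cytosolic ribosomal protein genes encode the proteins of the cytoplasmic ribosome. They were taken here as the protein-coding genes whose GENCODE mouse symbol is Rpl or Rps with a number and at most a letter and an l, Rpsa, or Rplp0 to Rplp2. The rule found 81 genes among 43346 Ensembl gene rows, of which 21474 were protein-coding, and no symbol had more than 1 row. Of these, 50 belong to the large subunit and 31 to the small subunit. A set of 76, called core genes, remains when 5 paralogs with their own copy elsewhere in the set (Rpl3l, Rpl10l, Rpl39l, Rps27l and Rpl36al) are put aside. Genes of mitochondrial ribosomes are not part of the set.

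The data are total RNA-seq libraries of limb tissue from mouse embryos at embryonic day 10.5, strain B6NCrl, both sexes pooled. There is 1 group of 2 biological replicates, replicate 1 from the limbs of 69 embryos and replicate 2 from those of 51. Each library began with 10 ng of RNA longer than 200 nt, with synthetic spike-in RNAs added. The labels carry no treatment or genotype contrast, so levels are described within the tissue and the pools are set against each other. Each value belongs to a pool of whole tissue, so fewer cells of a type and less RNA per cell cannot be told apart, and the pool, the library and any batch cannot be told apart either. With 2 libraries an exact sign-flip test cannot give a p below 0.5, and none is given.

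A ribosome holds nearly all of its proteins in equal number, so cells need them in matched amounts. Their mRNAs are short, abundant and mostly encoded by single functional genes with introns, and the mouse genome holds many reverse-transcribed copies of them, the processed pseudogenes. They carry a 5′ terminal oligopyrimidine (TOP) tract, a C followed by a stretch of C and T at the cap, through which mTOR and Larp1 control their translation. Growing embryonic tissues make ribosomes fast, and mice with mutations in single ribosomal proteins, such as Rpl38 in Tail short and Rpl24 in Belly spot and tail, have defects of skeleton and tail.

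Start windows of some of the genes hold a stretch of C and T at or near the annotated start, and 6 are printed here. Each window has 60 bases, from 40 bases upstream to 20 bases downstream of the annotated start, 5′ to 3′ on the coding strand. They come from RefSeq on GRCm38.p6, and the capitals mark unbroken runs of 8 or more C or T. These genes were chosen after their windows were seen, as examples of long runs at or near the start. In Rpl27a the annotated first base is T rather than C.
Rpl27a (chr7:109519155-109519214, + strand): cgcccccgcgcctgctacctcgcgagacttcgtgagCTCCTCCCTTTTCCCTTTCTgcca
Rpl15 (chr14:18270967-18271026, - strand): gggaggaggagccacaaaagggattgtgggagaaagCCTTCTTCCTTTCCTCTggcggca
Rps10 (chr17:27635225-27635284, - strand): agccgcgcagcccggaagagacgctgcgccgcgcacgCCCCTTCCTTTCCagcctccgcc
Rps18 (chr17:33955646-33955705, - strand): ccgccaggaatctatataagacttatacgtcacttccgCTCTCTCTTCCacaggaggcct
Rps6 (chr4:86857348-86857407, - strand): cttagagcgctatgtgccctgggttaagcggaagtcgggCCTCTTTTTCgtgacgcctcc
Rpl38 (chr11:114668540-114668599, + strand): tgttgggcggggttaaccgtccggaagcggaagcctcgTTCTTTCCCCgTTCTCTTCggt

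A RefSeq start window was matched by symbol for 61 of the 81 genes. A run of 8 or more C or T between positions -5 and +15 stood in 31.1% of them, against 6.66% of all 27025 windows in the table and 6.58% of the 9300 windows of expressed protein-coding genes. A run of 10 or more stood in 21.3% against 2.71% of all windows. Within 50 bases either side of the start, a window added after seeing the data, a run of 8 or more stood in 82.0% of the ribosomal protein genes and in 35.7% of all windows. The annotated first base was C in 31.1% of the genes and in 16.2% of all windows. Both windows thus held runs more often in these genes than in the table as a whole. These are shares of letters in annotated windows, and the annotated start can lie some bases from the one used in limb.

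Of the promoter motifs searched on both strands over the 300-base windows (250 before to 50 after the start), CCGGAAG, the core of an ETS factor site, stood in 39.3% of the ribosomal protein genes. It stood in 9.12% of all windows and 19.1% of those of expressed protein-coding genes. The palindrome with CGCG at its centre, found in some promoters without a TATA box, stood in 8.20% (5 of 61) against 0.496% of all windows and 1.14% of those of expressed genes. AAGATGGC, which matches a YY1 site, stood in 6.56% (4 of 61) against 2.88% of all windows and 5.0% of those of expressed genes. For the other motifs the direction turned with the background. CACGTG, the E-box read by Myc, stood in 8.20% against 7.24% of all windows and 10.5% of those of expressed genes. TATAAA, the TATA box, stood in 8.20% against 14.2% of all windows and 6.40% of those of expressed genes. No motif searched holds another.

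**Figure D1:**
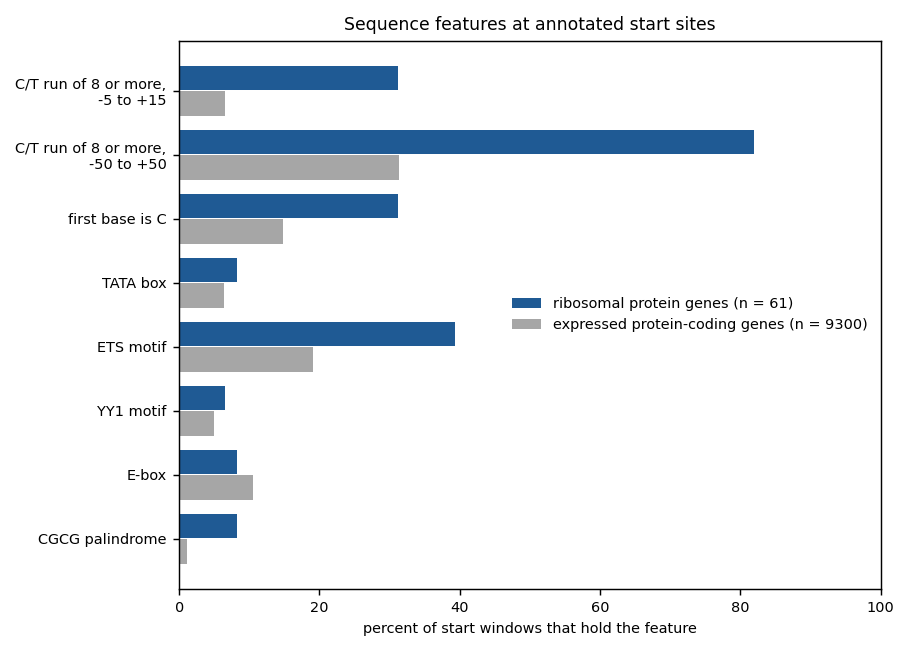
Percent of RefSeq start windows (x axis) that hold each sequence feature (y axis), for 61 ribosomal protein genes (blue) and 9300 expressed protein-coding genes (grey). The C/T run within 50 bases of the start was found in 82.0% of the ribosomal protein genes, the highest share shown, and the E-box is the only feature with a shorter blue bar than grey bar.

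The genes are spread over 19 chromosomes, with 14 on chromosome 7 and 4 on chromosome X. Many also carry small nucleolar RNA genes, whose products guide the modification of ribosomal RNA, within their introns or exons. In GENCODE M21 a snoRNA gene on the same strand lay inside 29 of the 81 genes (35.8%), against 1.77% of expressed protein-coding genes, and 56 snoRNA genes lay inside them in all. Rpl4 held 5, and Rpl13a held 4.

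Nearly all of the genes were expressed at high level. A gene was called expressed when both libraries gave it a TPM (a level per unit of transcript length, scaled to the same total in each library) of 1 or more. By this rule 78 of 81 were expressed, and 55.2% of protein-coding genes were. Their median TPM was 827 in replicate 1 and 728 in replicate 2, where the median of expressed protein-coding genes was 19.9 and 22.4. Of the 100 protein-coding genes with the highest mean TPM, 28 were ribosomal protein genes, and 70 were among the highest 500. Because the mRNAs are short (median length 684 nt for core genes, 2483 nt for expressed protein-coding genes), they took a smaller share of reads than of molecules. They held 2.86% of gene counts in replicate 1 and 2.38% in replicate 2, and 7.59% and 6.57% of TPM.

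Library depth was 40509328 expected counts in replicate 1 and 43983028 in replicate 2, over all rows of the tables. The expressed ribosomal protein genes had between 1510 (Rps27) and 46073 (Rpl4) expected counts in a library, so counting error was small for each. In the tissue check, limb mesenchyme markers summed to 860 and 1040 TPM over 9 of 9 expressed genes, and ectoderm and ridge markers to 229 and 176 TPM over 6 of 6. Erythroid markers summed to 11725 and 9550 TPM over 5 of 5, and endothelial markers to 138 and 144 TPM over 4 of 4. Neural tube and liver markers were all under a TPM of 1 in at least 1 library, with sums of 0.32 and 0.24 TPM for neural tube and 1.93 and 0.69 TPM for liver. Striated muscle markers summed to 11.0 and 48.1 TPM.

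Among large subunit genes Rpl41 was the highest, at a TPM of 3200 in replicate 1 and 2941 in replicate 2. Rpl41 (chr10:128548114-128549305, - strand) encodes a very small basic protein, and its whole coding sequence of 78 nt is printed here from GENCODE M21 because it is so short.
Rpl41: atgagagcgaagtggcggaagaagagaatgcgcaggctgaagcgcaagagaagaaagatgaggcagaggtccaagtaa
Rpl32 followed at a TPM of 1628 and 1416. Of the stalk proteins, which recruit translation factors to the ribosome, Rplp0 stood at 1457 and 1203 TPM, Rplp1 at 1138 and 950, and Rplp2 at 1146 and 958. The 3 stalk genes thus lay in the upper part of the range, each with its higher value in replicate 1.

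Among the high small subunit genes, Rps19, whose human counterpart is mutated in Diamond-Blackfan anaemia, stood at a TPM of 1915 in replicate 1 and 1811 in replicate 2. Rps14 stood at 1769 and 1602 TPM, and Rps2 at 1750 and 1423 TPM. The median of the 46 core large subunit genes was 833 and 765 TPM, and that of the 30 core small subunit genes was 897 and 748 TPM. The subunits were not ordered, since the small subunit median was higher in replicate 1 and the large subunit median in replicate 2.

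**Figure D2:**
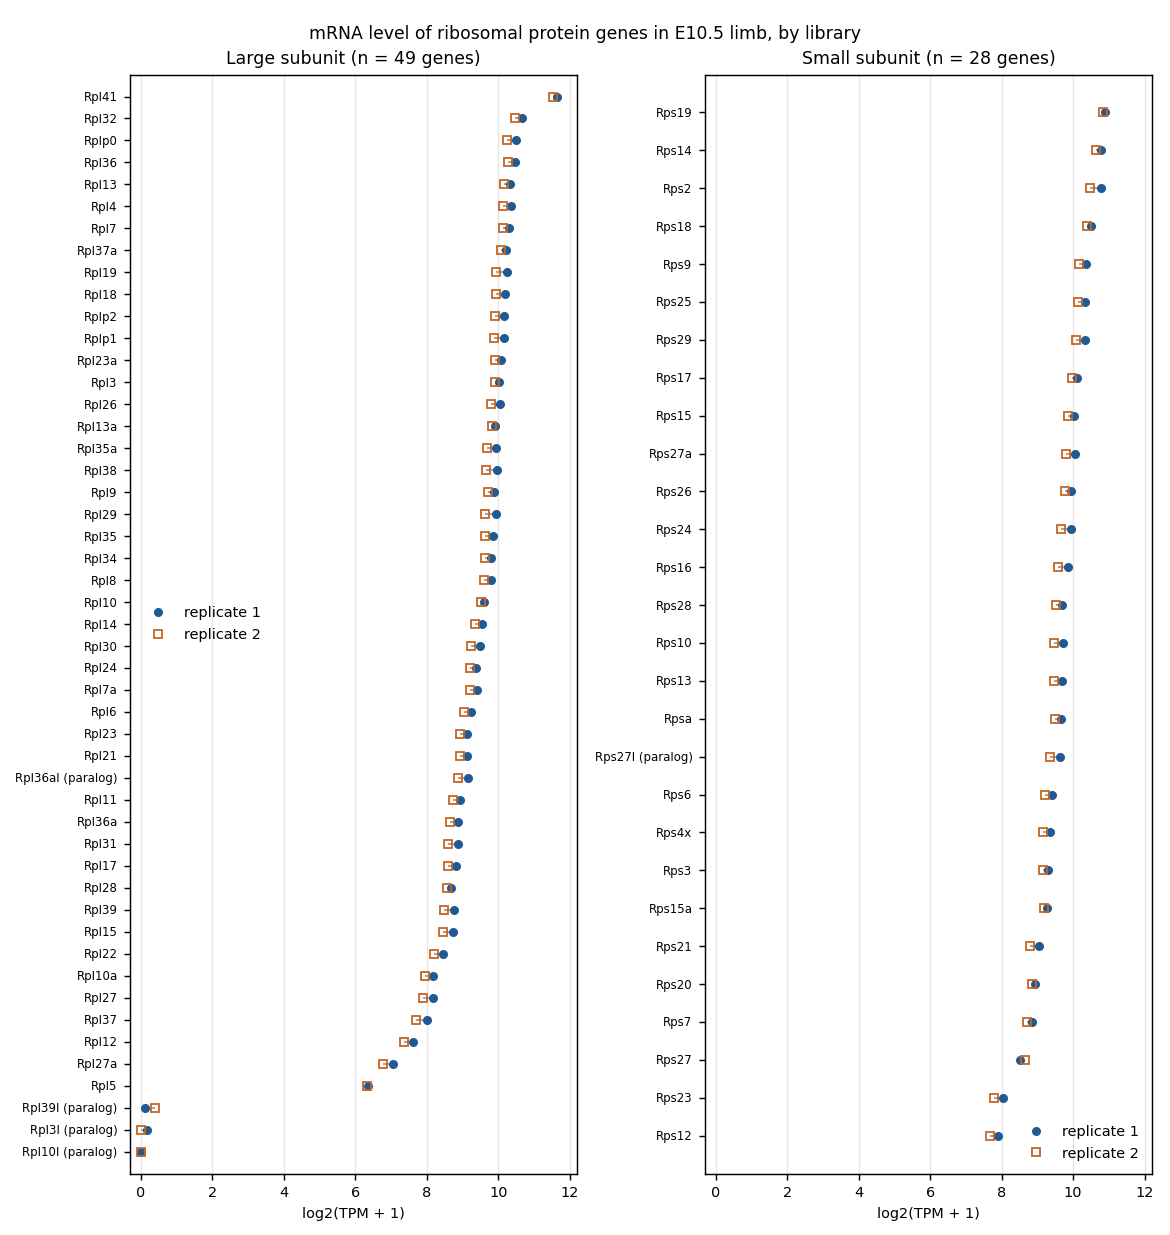
Level of 77 of the 81 ribosomal protein genes as log2(TPM + 1) (x axis) in replicate 1 (filled circles) and replicate 2 (open squares), with a line joining the 2 libraries of a gene and genes ordered by mean TPM (y axis). Rpl41 is highest at 3200 and 2941 TPM, Rpl5 is the lowest core gene at 80.4 and 79.3 TPM, and Rpl10l, Rpl3l and Rpl39l sit at or near 0.

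The lowest core gene was Rpl5, at a TPM of 80.4 in replicate 1 and 79.3 in replicate 2. Its protein binds 5S ribosomal RNA together with Rpl11 and, outside the ribosome, the p53 regulator Mdm2. Rpl27a stood at 132 and 109 TPM, Rpl12 at 193 and 162, Rps12 at 239 and 202, Rpl37 at 255 and 208 and Rps23 at 263 and 220. The genes therefore differed far more among themselves than between libraries. The highest core gene was 39.8-fold above the lowest in replicate 1 and 37.1-fold in replicate 2, 17 core genes were at 1000 TPM or more in both libraries, and 8 were under 300 in both. The SD of log2 TPM over core genes was 0.93 and 0.92, where it was 2.18 and 2.09 over all expressed protein-coding genes. The order of core genes was nearly the same in both libraries (Spearman's rho 0.994 over 76 genes from the same annotation).

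Most of the low core genes have a processed pseudogene that was listed at a higher level than they were. The authors' estimate divides reads that fit several rows, so a member's row and those of near-identical copies are uncertain one by one. A copy was taken as a pseudogene row whose transcript holds, in the same orientation, at least 1 identical word of 100 bases from the gene's leading transcript. Of the 81 genes, 65 had such a copy and 61 had an expressed copy. There were 350 copies in all, 117 of them expressed, and none was shared between genes. Their rows held 1.80% and 1.57% of TPM. The copies of 13 genes summed above the gene's own row in both libraries. Among these were 7 of the 10 lowest core genes and 6 of the other 66.

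Rpl5 (chr5:107900502-107909005, + strand, GRCm38) had the largest such share. The pseudogene Gm15500 (chr7:114705217-114706235) was listed at 999 TPM in replicate 1 and 820 in replicate 2, more than 10 times the Rpl5 row in both libraries. The coding region of Rpl5 has 894 nt and thus 795 words of 100 bases, and all 795 stand unchanged in Gm15500. Its first 100 coding bases, present in both, are printed to show a stretch that no read inside it can assign.
Rpl5 and Gm15500: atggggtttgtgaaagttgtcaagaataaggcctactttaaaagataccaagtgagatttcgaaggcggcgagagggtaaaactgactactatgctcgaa
With its copies added, Rpl5 stood at 1081 and 900 TPM. On the scale of log2 TMM-scaled counts, the difference of replicate 2 minus replicate 1 was -0.21 for the Rpl5 row and -0.43 for Gm15500.

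Other genes also stood higher with their copies added, by smaller folds than Rpl5. Rps23 rose from 263 and 220 TPM to 1618 and 1383 TPM, almost all of it from Rps23-ps1 at 1351 and 1157 TPM. Rpl15 went from 426 and 351 TPM to 1618 and 1390 TPM, with Rpl15-ps3 at 1189 and 1036 TPM. For Rpl15 the deposited maximum-likelihood and posterior values also divided the reads differently: the copy Gm4294 had a TPM of 0 in both libraries but a posterior mean TPM of 141 and 101. Rpl27 went from 286 and 238 TPM to 1612 and 1378 TPM, Rpl37 from 255 and 208 to 1046 and 901 TPM, Rpl27a from 132 and 109 to 682 and 594 TPM, and Rpl12 from 193 and 162 to 673 and 549 TPM. Rps6, the substrate of S6 kinases, went from 680 and 592 TPM to 1397 and 1185 TPM through Rps6-ps4. How many of these reads came from the copies themselves was not tested. Reads of overlapping genes on the opposite strand are a further source of doubt, since strand use in the counting is not given. Rpl28 overlaps Ube2s (481 and 435 TPM) over 8.54% of its words, and Rps25 overlaps Trappc4 (111 and 104 TPM) over 30.7%. These words are of the M21 transcripts, which are longer than the deposited ones for Rpl28 (1106 against 602 nt) and Rps25 (1280 against 683 nt). The overlap within the deposited transcripts of these 2 genes can therefore differ. Rpl5 overlaps Fam69a (9.02 and 13.1 TPM) over 43.9% of its words.

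With copies added, the core genes lay closer together. The SD of log2 TPM was then 0.65 in replicate 1 and 0.64 in replicate 2, in place of 0.93 and 0.92. The ratio of highest to lowest was 9.22 and 9.98, in place of 39.8 and 37.1. Adding a value that is never negative can only raise a level, and it raised the low genes most. The lowest core gene was then Rpl22, at 347 and 295 TPM. Rpl22 is 1 of 8 core genes that share no 100-base word with any other gene, with Rpl23, Rpl32, Rps20, Rps21, Rps3 and Rps9 among the others. These 8 genes had a median of 595 and 530 TPM, so levels from 295 TPM (Rpl22) to 1628 TPM (Rpl32) were found without any shared word. Rows named after a gene with the ending -ps, a definition by name alone, numbered 251 for 52 genes, with 62 expressed. This set overlaps the copies only in part, since it needs no shared word and takes rows of any biotype. Its TPM was 10.2% of that of the ribosomal protein genes in each library. The genes with most TPM in such rows were Rps23, Rpl15 and Rps6. Rpl31, at 595 and 522 TPM in such rows, and Rpl27, at 600 and 511 TPM, came next and close together.

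**Figure D3:**
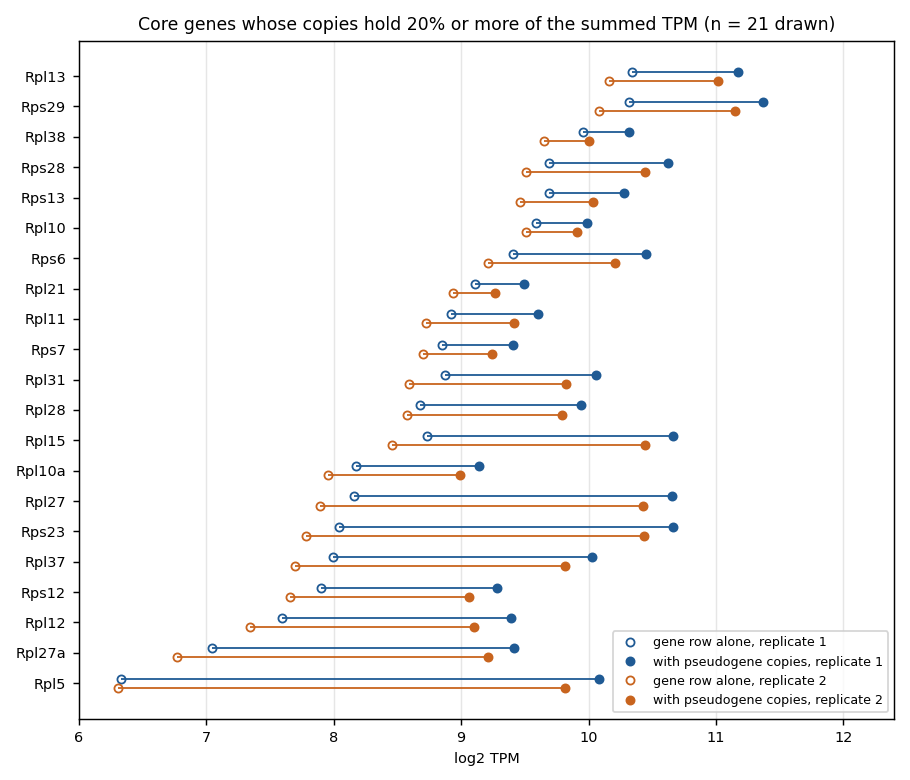
Level as log2 TPM (x axis) for the gene row alone (open circles) and with its copies (filled circles), in replicate 1 (blue) and replicate 2 (orange). Drawn are 21 of the core genes (y axis) whose pseudogene copies hold 20% or more of the summed TPM, and a few others are left out. Rpl5 has the longest line, from 80.4 to 1081 TPM in replicate 1, and all filled circles lie above 500 TPM.

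The 5 paralogs fell into an expressed and a near-silent set. Rps27l, which has been described as a p53 target, stood at a TPM of 787 in replicate 1 and 651 in replicate 2, and Rpl36al at 570 and 472. Rpl3l, known from striated muscle, had 4 expected counts in replicate 1 and 0 in replicate 2, a TPM of 0.13 and 0. Rpl39l, known from testis, had 1 and 4 counts, a TPM of 0.08 and 0.32. Rpl10l, also known from testis, had 0 counts in both libraries, and the upper bound of its deposited TPM interval was 0.118 and 0.115. These 3 low rows held at most 4 expected counts in a library, and whether they differ from 0 was not tested.

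The reads can tell most of these pairs apart. Coding sequences of Rpl39 (chrX:37082520-37085402, - strand) and Rpl39l (chr16:10170226-10174911, + strand) are printed from GENCODE M21, with capitals at the 23 of 156 bases that differ, because the pair shows a high and a near-silent gene of almost the same protein.
Rpl39: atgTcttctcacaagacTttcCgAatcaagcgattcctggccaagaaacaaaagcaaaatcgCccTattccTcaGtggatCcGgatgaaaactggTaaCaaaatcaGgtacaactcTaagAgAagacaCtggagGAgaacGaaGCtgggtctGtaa
Rpl39l: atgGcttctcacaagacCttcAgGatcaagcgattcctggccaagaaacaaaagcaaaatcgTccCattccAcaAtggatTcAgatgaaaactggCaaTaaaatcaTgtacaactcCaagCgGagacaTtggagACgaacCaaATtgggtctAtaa
Their coding identity is 85.3%, and the longest identical stretch is 38 bases. It is 84.8% for Rpl10 and Rpl10l, 87.9% for Rpl36a and Rpl36al and 76.1% for Rps27 and Rps27l.

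Of 8 pairs of a core gene and its relative, all 8 were ordered, meaning that the deposited TPM intervals of the 2 genes stood apart in each library with the same gene on top. The intervals cover estimation within a library only. Rpl3 stood at 1046 and 953 TPM, Rpl10 at 769 and 728 TPM and Rpl39 at 430 and 358 TPM, each above its near-silent paralog. Rpl36al was higher than Rpl36a, at 570 and 472 TPM against 465 and 398 TPM. Rpl22 was above Rpl22l1, at 347 and 295 TPM against 294 and 250 TPM, and Rpl7, at 1251 and 1118 TPM, was above Rpl7l1, at 197 and 183 TPM. Rps4x, on the X chromosome, stood at 650 and 571 TPM and Rps4l, annotated as a transcribed processed pseudogene and so outside the set, at 197 TPM in both.

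Rps27l was listed above Rps27, which stood at 363 TPM in replicate 1 and 404 in replicate 2, but this order depends on a copy. Rps27rt, a protein-coding retrocopy on chromosome 9, has the same 255 coding bases as Rps27 (chr3:90212522-90213651, - strand) with 0 differences, and was listed at 840 and 842 TPM. The shared sequence is printed from GENCODE M21.
Rps27 and Rps27rt: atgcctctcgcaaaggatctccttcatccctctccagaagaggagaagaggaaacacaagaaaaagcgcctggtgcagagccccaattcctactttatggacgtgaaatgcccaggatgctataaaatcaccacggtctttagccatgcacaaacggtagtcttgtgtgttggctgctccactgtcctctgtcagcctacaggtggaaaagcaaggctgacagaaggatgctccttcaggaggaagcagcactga
The Rps27 transcript in the tables was 255 nt long, the length of the coding region alone, while GENCODE M21 gives the same transcript 345 nt and the tables give Rps27rt 370 nt. Rps27 and Rps27rt together stood at 1203 and 1246 TPM, 1225 ± 30.2 (SD, n = 2), above Rps27l at 719 ± 96.6 (SD, n = 2). Rps27 also had the widest interval of any core gene, 27.0% and 24.5% of its posterior mean, where the median was 4.15% and 4.46%. Only Rps12, Rpl5, Rpl12 and Rpl31 otherwise had an interval wider than 10% in both libraries.

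Most genes were read as 1 transcript. The leading transcript, the one with the highest mean TPM over the libraries, took a median of 93.7% and 93.1% over core genes, and the top transcript was the same in both libraries for 75 of the 78 expressed genes, the exceptions being Rpl5, Rpl13a and Rps18. The share was 90% or more in both libraries for 41 core genes and under 60% in both for 15. Shares were lowest for Rpl13a at 33.5% and 27.8%, Rpl15 at 42.1% and 35.8%, Rpl5 at 44.8% and 41.5%, and Rpl38 at 45.4% and 49.1%. In replicate 2 the top transcript of Rpl5 was Rpl5-205, annotated as retaining an intron, at 46.7%, and that of Rpl13a was a transcript absent from M21, at 30.6%. The 3 main transcripts of Rpl38 are all annotated as coding and are 345 to 371 nt long.

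For a few genes, most of the level was in transcripts not annotated as coding. Protein-coding transcripts took a median of 98.9% and 98.4% of a core gene's TPM, and 90% or more in both libraries for 59 core genes. The share was under 50% in both libraries for 6. In Rps20 it was 6.45% and 6.44%, and the leading transcript Rps20-201, of 582 nt and annotated in M21 as retaining an intron, took 92.1% and 91.8%. In Rpl35 the coding share was 3.77% and 4.12%, with 91.2% and 88.9% in Rpl35-203, a processed transcript. In Rpl12 it was 20.3% and 17.6%, with 61.2% and 59.4% in Rpl12-201, annotated for nonsense-mediated decay. Rpl23 had 41.7% and 42.2% and Rps18 45.9% and 48.3%. The remaining gene, Rpl13a, had 33.5% and 27.8%, and the other 66.6% and 72.2% of its TPM lay in transcripts of the older annotation that M21 does not hold. The shares were close between libraries, and whether the reads came from the annotated noncoding forms was not tested.

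**Figure D4:**
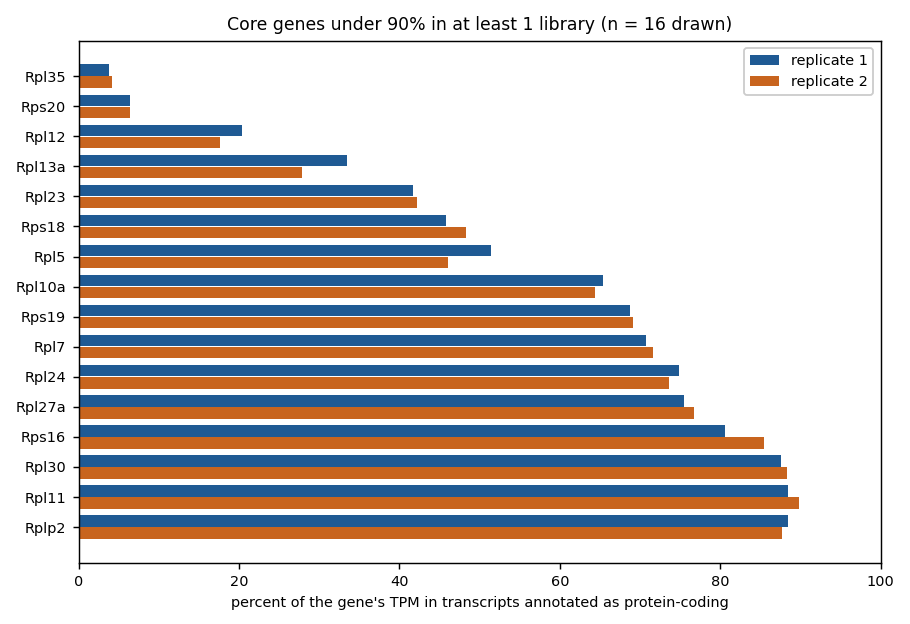
Percent of a gene's TPM in transcripts that GENCODE M21 annotates as protein-coding (x axis), in replicate 1 (blue) and replicate 2 (orange). Drawn are 16 of the core genes (y axis) under 90% in at least 1 library, and not all such genes are drawn. Rpl35 and Rps20 are under 7% in both libraries, and for Rpl13a the remainder is in transcripts absent from M21.

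The genes differed between the pools as a block. Expected counts were scaled by TMM, a method that centres most genes on no difference, and the log2 difference was taken as replicate 2 minus replicate 1. All 78 expressed genes passed the filter of a mean count of 10 or more. Of these, 77 were lower in replicate 2, where 48.1% of 16860 genes past the filter were lower. For the same 77 the exact binomial 95% counting interval lay wholly below 0, as it did for 26.2% of genes past the filter. At mean counts of at least 1000, which all 78 reached, 58.0% of genes were lower and 43.1% had an interval below 0. None of the 78 differed by 2-fold, where at mean counts of at least 100 the share of genes was 0.31% for 2-fold lower and 1.31% for 2-fold higher. Such an interval describes counting alone, and PCR reads with no molecular identifier are not independent molecules.

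The median difference was -0.34, or 21.1% lower in replicate 2, and it was -0.34 over 47 large subunit genes and -0.33 over 31 small subunit genes. The SD over the 78 genes was 0.075, against 0.23 over 7330 other genes at mean counts of at least 1000, whose median was -0.04. Of those deep genes without the ribosomal protein genes, 5.46% lay at or below -0.34. Among the largest differences were those of Rpl19 (-0.45), Rpl38 (-0.44) and Rps2 (-0.43). Among the smallest were those of Rps27 (0.02, interval -0.08 to 0.12), Rpl5 (-0.21) and Rpl10 (-0.22). Rps27 was the 1 gene whose interval spanned 0, and together with its coding-identical copy Rps27rt it differed by -0.10.

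**Figure D5:**
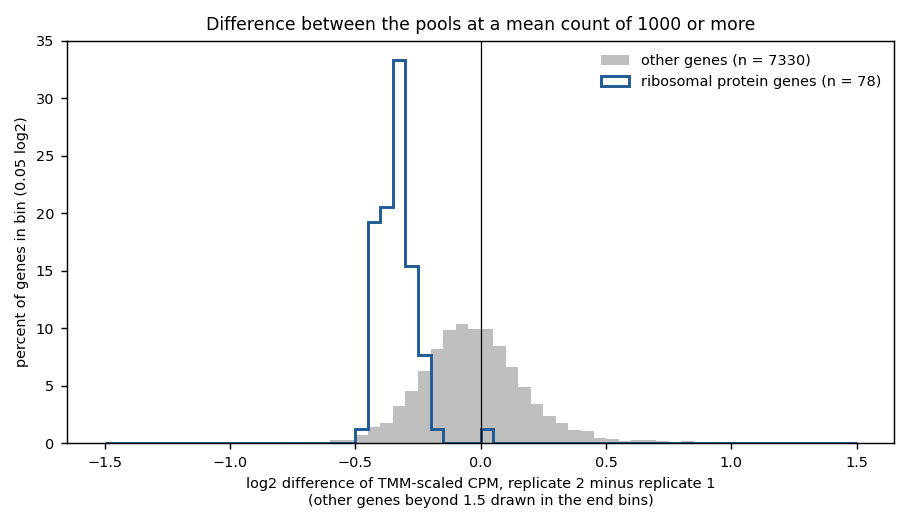
Log2 difference of scaled CPM between the pools, replicate 2 minus replicate 1 (x axis), as the percent of genes in each bin of 0.05 (y axis), for 78 ribosomal protein genes (blue outline) and 7330 other genes (grey), all at mean counts of at least 1000. The ribosomal protein genes form a narrow peak around -0.34, with Rps27 alone at 0.02.

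The size of this difference depends on the scaling. The median over all genes past the filter was 0.01 with TMM and 0.12 in the deposited TPM on the log2(TPM + 1) scale, and 0.26 when counts were scaled to the spike-in RNAs. The median of the ribosomal protein genes was -0.20 in TPM, where 77 of 78 were lower against 30.0% of genes past the filter. It was -0.09 with spike-in scaling, where 70 of 78 were lower against 17.5% of genes. Relative to the median of all genes they lay at -0.35 with TMM, -0.32 in TPM and -0.35 with spike-in scaling. Since TMM and spike-in scaling each apply a single factor to a library, the distance to the median of all genes is nearly fixed by construction and does not show stability. With spike-ins the difference was small and 8 genes were not lower.

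Values that moved with the difference are these. Of 48 pseudogene copies at mean counts of at least 100, 42 were lower in replicate 2 with TMM, with a median of -0.32, where 50.2% of genes at such counts were lower. The copies were chosen for words they share with the genes, and reads that fit both are divided between them. Their values are therefore not separate from those of the genes. The 597 other genes at mean counts of at least 1000 that were 1000 nt long or shorter had a median of -0.18. With TMM, where 48.1% of genes were lower, erythroid markers were lower in replicate 2 in 5 of 5 genes (summed TPM 11725 and 9550), ectoderm and ridge markers in 6 of 6 (229 and 176) and mesenchyme markers in 3 of 9 (860 and 1040), while muscle markers were higher in 3 of 3 (11.0 and 48.1). Single log2 differences ran from -0.78 to -0.17 for erythroid and from -0.70 to -0.16 for ectoderm and ridge markers. They ran from -0.26 to 0.94 for mesenchyme and from 1.33 to 3.28 for muscle markers. Endothelial markers were lower in 3 of 4 with TMM and in 0 of 4 in TPM or with spike-in scaling (138 and 144). The part of cell mixture and of transcript length in the difference was not tested. Across the 76 core genes, which share libraries and depth, the difference had a Pearson's r of -0.03 with transcript length and -0.19 with GC content of the leading transcript. Log2 TPM had an r of -0.24 with length and 0.35 with GC content.

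Other genes of the ribosome and of translation were read from 4 lists. Their differences are of TMM-scaled counts, by which 48.1% of all genes past the filter were lower in replicate 2 and 26.2% had an interval below 0. At mean counts of at least 1000, which all listed genes reached, these shares were 58.0% and 43.1%. In TPM the share of genes past the filter that were lower was 30.0%, and with spike-in scaling 17.5%. Both scalings were run for the lists after seeing the data. Of 6 ribosome genes whose symbols fall outside the rule, 6 were expressed with a median of 678 TPM, and 6 were lower in replicate 2 with a median difference of -0.34. In TPM 6 were lower, and with spike-in scaling 5. Among the highest were Rps3a1 at 1080 ± 100.2 TPM and Rack1, a scaffold on the small subunit, at 754 ± 89.7 TPM (SD, n = 2), and the lowest was Rpl7l1 at 190 ± 10.1 TPM. Of 14 other TOP mRNAs, mostly translation factors, 14 were expressed with a median of 476 TPM, and 14 were lower with a median of -0.26. In TPM 12 were lower, and with spike-in scaling 7. Eef1a1, which brings tRNA to the ribosome, stood at 3358 and 3279 TPM, Npm1, a nucleolar chaperone, at 1502 and 1242, and Tpt1 at 782 and 705. Eif3f was lowest at 72.2 and 73.4 TPM.

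Of 30 ribosome assembly genes, 30 were expressed with a median of 84.4 TPM. With TMM all 30 were lower in replicate 2 with an interval below 0, at a median of -0.33. In TPM 27 were lower, and with spike-in scaling 21. The nucleolar protein Ncl stood at 528 and 461 TPM, and Nop56 and Nop58, which bind snoRNAs, at 391 and 251 TPM as means of the libraries. Efl1, which releases an assembly factor from the large subunit, was lowest at 19.0 and 20.5 TPM. Of 13 genes that control TOP translation, 9 were lower and 4 higher, with 7 intervals below and 2 above 0 and a median of -0.09. In TPM 5 were lower, and with spike-in scaling 2. Eif4e, the cap-binding protein, stood at 196 and 194 TPM, its inhibitor Eif4ebp1 at 183 and 124 TPM, and Rheb, which activates mTOR, at 148 and 155 TPM. Rptor, the mTOR partner, was lowest at 14.5 and 14.9 TPM. With TMM the genes of the first 3 lists thus all stood below 0, which did not hold for each of them under the other scalings.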

How the data were processed

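Total RNA-seq of 2 limb pools was used. The gene and transcript tables hold expected counts (estimated reads per row), TPM, posterior mean TPM with interval bounds of unstated level, and the percent of a gene's TPM in each transcript, all made by the authors per library on mm10 with GENCODE M4, per the file headers and the text notes beside them. The aligner, quantifier, versions and strand setting: not given in the sources used here. Labels link a SMARTer Ultra Low RNA kit manual. Effective length was transcript length minus 99 nt.

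Symbols, biotypes and sequences came from GENCODE M21 (GRCm38, the assembly of mm10), which named 98.0% of Ensembl rows, and start windows from RefSeq. Spike-in rows and 26248 rows with numeric identifiers stayed out of library sizes. Expected counts were rounded, and edgeR 4.0.16 in R 4.3.3 made TMM-scaled log2 CPM from them with a prior count of 2. DESeq2 1.42.0 gave the other size factors. The rest was done with scipy 1.17.1, numpy 2.4.6, matplotlib 3.10.9 and pandas 2.3.3 under Python 3.11.15. The scaling was tested on simulated data. Intervals are exact binomial at 95%. With 2 libraries of 1 group no p-value was computed. Expressed genes had at least 1 TPM in each library.

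Members and lists were chosen with earlier results of these data known. Genes named in full were the 6 highest and 6 lowest members, the 4 most and the 4 least different between pools (mean count at least 100), the paralog pairs, the 4 with most pseudogene TPM, the 4 with the lowest leading transcript share, and the 3 highest and the lowest gene of other lists. Other members named were chosen after their values were seen. The search for copies by 100-base words was added after seeing the data. Alternatives were posterior mean TPM, other thresholds, scalings, prior counts and filters, and each library left out. A few genes that this rule allows are counted in all totals but not reported here by name.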

Additional observations from a re-analysis of the deposited data

How the results depend on the processing

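No paired analysis was possible because the labels give only 1 group. The count of 78 expressed genes was the same at a TPM of 0.1 or 10, with posterior mean TPM and in each library alone. With copies added, a choice made after seeing the data, the median TPM was 963 in place of 770. The ribosomal share of gene counts, 2.62% over both libraries, became 7.08% in TPM. The SD of log2 TPM over core genes, 0.92 as the mean of both libraries, was 0.9237 with posterior mean TPM, 0.91 without genes under 500 nt, 0.65 with copies and 0.64 with all same-strand genes that share a word (both added after seeing the data). The log2 ratio of large to small subunit medians was -0.04, and -0.14 with paralogs included. The median log2 difference of -0.34 was -0.20 in TPM and -0.088 with spike-in scaling. Pseudogene rows named -ps held 10.2% of the ribosomal TPM, 10.1% by posterior mean TPM, and 23.8% when all copies that share a word were counted (added after seeing the data). The share of genes with a C or T run was 42.6% for runs of 6 or more and 82.0% within 50 bases of the start. The log2 ratio of Rps27 to Rps27l, -0.90, reversed to 0.77 with Rps27rt added to Rps27. This was chosen after seeing the data. Leaving out a library leaves no difference between pools to compute. All 8 pairs were called in each library alone. With spike-in scaling, run for the lists after seeing the data, 7 of 14 other TOP mRNAs were lower in place of 14, and 2 of 13 genes that control TOP translation in place of 9 (5 in TPM). Read division between near-identical rows and the single group limit these values.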
